A study of Mus musculus with 9 samples.

Results

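The net change over the first days of air-liquid interface culture was described by setting the day 5 libraries of mouse tracheal epithelial cells against those of day 1. All cells were wild-type (WT) primary mouse airway basal stem cells from the trachea, grown by ALI culture. In that system medium reaches the cells only through the membrane under them, and their upper face is open to air. Day 1 and day 5 had 3 RNA sequencing libraries each, 6 of the 9 in the series, and the 3 libraries of day 3 entered the estimate of the spread and are given only where they show how a level was reached. The series names days 1, 3 and 5 as proliferation, stratification and luminal specification. No allele, agent or further treatment is given for any group, and the labels do not say whether replicates were separate animals or cultures, and the p-values therefore reflect no more than how these libraries vary, which may be technical. Of 56748 genes in the deposited table, 16768 reached 10 normalized counts in 3 or more of these 6 libraries and were tested. A normalized count is a read count divided by the size factor of its library. Just inside that limit was Tek, with 10.2, 15.8 and 11.5 on day 1 and 1.98, 6.45 and 2.46 on day 5, and just outside it was Ryr1, with 19.0, 9.96 and 13.9 on day 1 and 1.98, 1.29 and 4.92 on day 5.

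Basal cells are the stem cells of the tracheal lining. They sit on the basement membrane, carry keratins Krt5 and Krt14 and the transcription factor Trp63, and after injury or in culture they divide, pass through suprabasal intermediates that carry Krt8, Krt4 or Krt13, and give rise to secretory cells, multiciliated cells and rarer types. Secretory cells make secretoglobins, mucins, antimicrobial proteins and cytochromes P450, and multiciliated cells carry the motile cilia that move mucus.

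The day 1 libraries held 26.5 to 35.1 M reads and the day 5 libraries 16.4 to 19.3 M. Across genes, which are no replicates of each other, Pearson's r between log2 values was 0.968 to 0.990 within a day and 0.743 to 0.780 between day 1 and day 5 libraries. Transcripts linked to the sex chromosomes moved with day. Xist, the RNA of the inactive X chromosome, stood at 1548, 1908 and 2018 normalized counts on day 1 and 8698, 7303 and 6116 on day 5, and Y-linked Ddx3y at 1104, 1184 and 1184 and 190.2, 95.5 and 102. The sex makeup of the libraries and the day therefore cannot be told apart in any result below. Transcript length moved with day too, with a median log2 change of −0.65 in the shortest of 10 length bins of tested genes, 0.39 in bin 3 and −0.58 in the longest. Most listed markers of other tracheal cell types were under the limit for testing. Of 25 leukocyte genes in the table, 22 were under the limit for testing, with means of at most 18.9, and Ptprc, the pan-leukocyte CD45, stood at 3.47 on day 1 and 0.43 on day 5. The sum of that list without the lysozymes Lyz1 and Lyz2 was 279 to 318 on day 1 and 203 to 241 on day 5. Of 22 fibroblast genes 16 were under the limit, Col1a1 among them at 2.21 and 0.661, and the list summed to 3178 to 3550 on day 1 and 1374 to 1841 on day 5, although Dcn went from 0 to 112 and Pi16 from 0.226 to 48.3. Of 22 endothelial, muscle and cartilage genes 14 were under it, and the sums were 504 to 733 and 335 to 396. The part of these cell types in the results was not tested.

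Most tested genes differed between the 2 days. limma's test, fitted on log2(normalized count + 1) and adjusted by Benjamini-Hochberg over all 16768 genes at 0.05, placed 6209 genes higher on day 5 (37.0%) and 6447 lower (38.4%), which is 75.5% in either direction. Log2 changes below are on this scale, day 5 minus day 1, where the change of a gene with few reads comes out too small. Counts of list members below are to be read beside the 37.0% and 38.4% of all genes tested. Rises reached further than falls. Of the genes past the threshold, 4330 rose and 3951 fell by at least 1, 885 rose and 249 fell by at least 4, and 289 rose and 32 fell by at least 6. The median over all tested genes was −0.06. All 3 libraries of one day lay apart from all 3 of the other in 6432 genes that were higher and 6629 that were lower. Because the test limit is met by 3 libraries, 1407 genes entered through day 5 alone and 607 through day 1 alone, and such genes had to differ. Among the other 14754 genes, 32.6% were higher and 39.7% lower. A second class held genes that ended where they began. It was defined by a 95% confidence interval of the change lying wholly within 0.5 of 0 on the log2 scale, which is a factor of 1.41, and 1542 genes met it (9.20%). The remaining 2729 genes were neither past the threshold nor inside that margin, and for these the data fix neither a change nor a return.

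**Figure D1:**
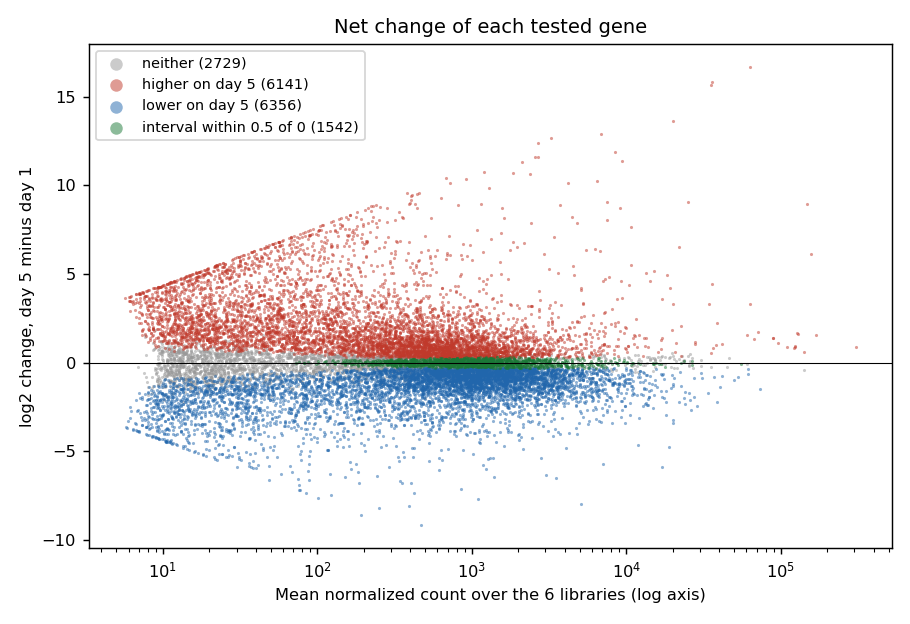
Log2 change from day 1 to day 5 (vertical axis) against the mean normalized count over the 6 libraries (horizontal log axis), 1 point per tested gene. Red points are genes higher on day 5, blue points lower, green points the 1542 genes whose interval lies within 0.5 of 0 (159 of them also past the threshold, drawn green) and grey points the 2729 others; the rises extend to 16.7 and the falls to −9.17 (Gm5478).

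Of the basal keratins, both members of the defining pair fell. Krt5 stood at 105130, 114770 and 104700 normalized counts on day 1 and 32540, 43946 and 40281 on day 5, a 2.78-fold fall (log2 change −1.48, SE 0.16, adjusted p = 1.2e-05). Krt14 went from 35821, 45087 and 35552 to 8772, 13792 and 13134, 3.26-fold lower (log2 change −1.73, adjusted p = 6.8e-06). In neither keratin did the days overlap. In bulk RNA, fewer cells of a type and less RNA per cell cannot be told apart, here or in any result below. Trp63, the master regulator of the basal state, read 3197, 4580 and 3655 on day 1 and 3276, 2787 and 2332 on day 5. Its days overlapped, and a change of −0.44 passed narrowly (adjusted p = 0.023) but was 0.02 (adjusted p = 0.85) once trends with length and GC content were taken out, and −0.03 after quantile normalization. Krt17, a keratin of activated basal cells, fell 10.3-fold, from 34769, 40251 and 34457 to 2634, 3876 and 4154. The integrin Itga6, which anchors basal cells to the basement membrane, went from 18488, 24242 and 21939 to 2969, 2336 and 2097 (log2 change −3.13, adjusted p = 5.6e-08), and Tnc, a matrix glycoprotein, from 995, 2545 and 1148 to 231, 182 and 165.

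Other basal genes moved the opposite way. Krt15, another basal keratin, rose from 65730, 58527 and 63768 to 155730, 220530 and 210540 (3.12-fold, adjusted p = 5.5e-05), with no overlap between days. Ngfr, the nerve growth factor receptor used to sort basal cells, rose from 389.9, 360.4 and 326 to 2088, 2098 and 1784, a 5.55-fold rise. Dapl1 rose 21.7-fold, from 40.01, 52.3 and 35.2 to 629, 1006 and 1134. Lamb3, the beta chain of laminin-332, ended where it began at 5689.9, 8468 and 6059.6 and 5763, 6944 and 5958, whereas Lama3, the alpha chain, fell by 2.38 on the log2 scale. Of the 23 basal genes, all tested, 7 were higher, 14 lower, 1 inside the margin and 1 neither, with a median of −0.51. Their summed share of reads was 1.68 to 1.82% on day 1 and 1.42 to 1.70% on day 5, so the list's total overlapped between days. That total leaned on Krt15. The list summed to 349710 to 399240 normalized counts on day 1 and 271550 to 359820 on day 5. Krt15 alone gave 58527 to 65730 and 155730 to 220530 of these, so the overlap does not describe the other members.

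**Figure D2:**
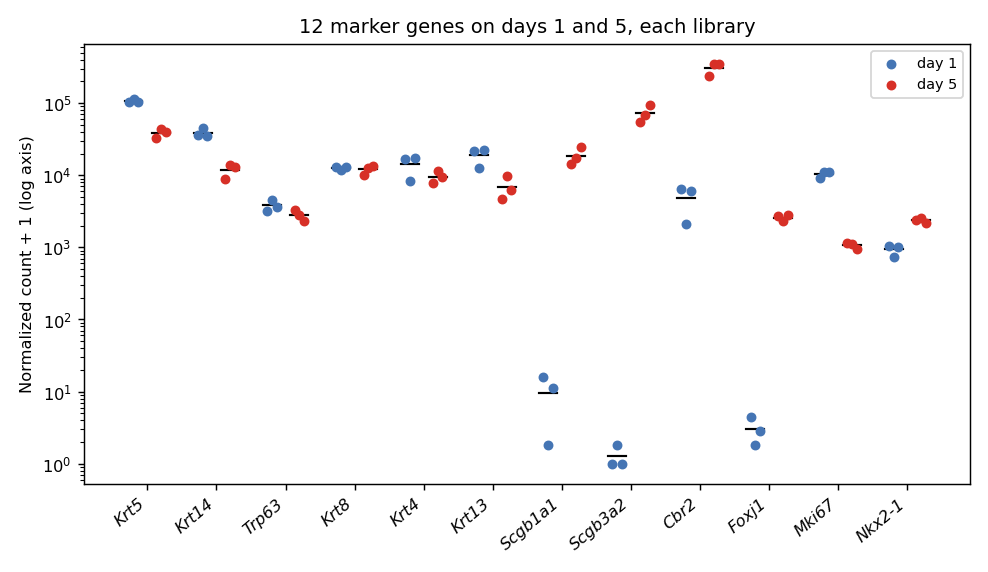
Normalized count + 1 (log axis) of 12 marker genes in each of the 3 libraries of day 1 (blue) and day 5 (red), with black bars for the mean of each day. The basal keratins and Mki67 lie lower on day 5, the days overlap in Krt8, and Scgb1a1, Scgb3a2 and Foxj1 lie far higher on day 5.

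Squamous cornification genes had the lowest median of the 34 lists, and most suprabasal genes fell as well. Hillocks are stratified patches of airway epithelium that carry Krt13 and Krt4. Krt13 stood at 22031, 12540 and 22470 on day 1 and 4729.6, 9876 and 6174 on day 5 (log2 change −1.48, adjusted p = 7.0e-04), with no overlap. Krt4 read 17021, 8339 and 17457 and 7702, 11338 and 9459, where the low day 1 value is that of the second library. Its change of −0.53 did not pass (adjusted p = 0.084), but −0.88 without that library did, as did −1.05 with the length and GC trend removed. Krt6a, a keratin of wounded and hyperproliferative epithelium, fell 58.7-fold from 31711, 36064 and 33027 to 544, 561 and 613, and its neighbour Krt6b 92.2-fold from 8266, 6646 and 6066 to 83.2, 60.7 and 83.7. The small proline-rich proteins, which are cross-linked into the cornified envelope, were among the steepest falls. Sprr1a went from 10262, 9269.5 and 11014 to 37.7, 38.7 and 44.3 (253-fold lower, adjusted p = 4.5e-10) and Sprr3 from 889.7, 581 and 924 to 4.95, 7.74 and 6.15. Sprr1b had 208, 106 and 193 on day 1 and no read in any day 5 library, which is at least 151-fold lower when a floor of 3 reads over the group is used. The Sprr and Krt6 genes are families of near-identical copies, and how the counting split reads among them is not given in the sources used here. Cnfn, cornifelin of the cornified envelope, fell 136-fold, from 1831, 1514 and 1759 to 8.92, 6.45 and 22.2.

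Of 19 tested suprabasal and hillock genes, 12 fell, 4 rose, 2 ended where they began and 1 was neither (median −1.13). Sprr3 entered through day 1 alone and had to be lower, and of the other 18 genes 11 fell and 4 rose. Of 16 tested squamous cornification genes, 11 fell and 3 rose (median −3.98). Of these 16, 2 entered through day 1 alone, Sprr1b among them, and 1 through day 5 alone, and they had to differ. Of the other 13, 9 fell and 2 rose (median −3.66). The members that rose were few. Tgm2, tissue transglutaminase, rose 75.9-fold from 206, 106 and 216 to 12661, 14360 and 13093. Lypd2 rose 28.1-fold from 670.0, 328 and 606 to 10633, 15180 and 19190, and the claudin Cldn3 2.47-fold from 2279, 1755 and 2142 to 4079.6, 5123 and 6057. The cornification genes that rose were Krt1, Calml3 and Krt10, and Krt10, with 117, 98.0 and 103 and 108, 182 and 201, overlapped between days and lost its call under other settings. Krt19 and Lgals3 were the suprabasal members that ended where they began.

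The luminal keratins Krt8, Krt18 and Krt19 ended where they began under the deposited scaling. Krt8, the keratin by which early luminal and intermediate cells are followed, read 12872, 11731 and 13200 on day 1 and 10052, 12592 and 13553 on day 5 (log2 change −0.07, 95% interval −0.36 to 0.21). Its partner Krt18 read 9038, 9654 and 9017 and 6916, 8795 and 9639 (interval −0.43 to 0.15), and Krt19 56501, 56377 and 54906 and 42471, 58752 and 61842 (interval −0.47 to 0.35). With the length and GC trend removed all 3 left the margin and were lower on day 5, by changes of −0.65 (adjusted p = 6.65e-05), −0.50 (adjusted p = 3.5e-04) and −0.53 (adjusted p = 0.004), and Krt19 also did with quantile normalization (−0.54). All 3 overlapped between days in the deposited values, and none had been level throughout, since the day 3 means were 22813, 19587 and 128180. Krt7, another simple epithelial keratin, did not return and ended at 13086, 17365 and 18015 after 54650, 46814 and 53856, 3.20-fold lower, having reached a mean of 116870 on day 3. Tight junction genes differed in direction. Among claudins, Cldn1 fell 14.8-fold from 769, 876 and 824 to 57.5, 58.1 and 51.7, Cldn7 ended where it began, and Cldn10 rose from 1 read in the whole day 1 group to 101, 112 and 130.4 normalized counts, a ratio of 492 with a counting interval of 87.6 to 19488. The scaffold Tjp1 (ZO-1) fell 5.26-fold, from 5993, 6824 and 7121 to 1742, 1075 and 971. Prom1, a protein of apical protrusions, rose 109-fold to 4063, 3319 and 3633, and Spdef, a transcription factor of mucous cells, from a mean of 1.81 to 247. Over the 28 genes of this list 12 rose, 10 fell and 6 ended where they began, with a median of −0.01 that became 0.06 with TMM factors, 0.35 with quantile normalization and −0.40 without the length and GC trend. Without the 2 that entered through day 5 alone, 10 rose and 10 fell.

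Secretory cell genes gave the largest rises. The host-defence protein Bpifa1 had 1 read in all of day 1 and 113630, 114120 and 149340 normalized counts on day 5, and the secretoglobin Scgb3a2 had 1 read and then 54578, 68265 and 94044. Scgb1a1, the club cell marker, rose from 14.9, 0.830 and 10.3 to 14216, 17437 and 24579 (log2 change 11.37, SE 0.64, adjusted p = 1.0e-07). In each of these every day 5 library stood above every day 1 library. Not all secretory genes began so low. Cbr2, a carbonyl reductase of club cells, was at 6407, 2087 and 6109 on day 1 and 238470, 346710 and 349700 on day 5, 64.0-fold higher, and its day 3 mean of 311060 was already at the day 5 level. The airway transcription factor Nkx2-1 went from 1044, 743 and 1019 to 2417, 2591 and 2149, 2.55-fold higher. Reg3g, an antimicrobial lectin, rose from 0.678, 0 and 2.43 to 12341, 11409 and 17615. All 35 secretory genes were tested and all 35 were higher, with a median of 6.14 and a range of 0.64 to 16.7. Of these, 11 passed the test limit through day 5 alone and had to be higher, and the remaining 24 were all higher as well, with a median of 4.87. The list took 0.552 to 0.654% of reads on day 1 and 6.34 to 7.56% on day 5.

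Lysozymes and drug-metabolizing enzymes accompanied them at the top. Lyz2 had 2 reads in all on day 1 and 66190, 63260 and 81448 on day 5, and Lyz1 none and then 5899, 5832 and 7752, at least 9318-fold higher. The lysozymes are made by macrophages and also by airway secretory and glandular cells. Of the 25 leukocyte genes in the table, 5 were at 0 on both days. That list without the lysozymes summed to 279 to 318 on day 1 and 203 to 241 on day 5. Its 1 other tested gene fell by 0.67 on the log2 scale. The source of the lysozyme reads was not tested. The lysozyme pair is near-identical, and the split of reads between them is uncertain. Cyp2a5, a cytochrome P450 with close paralogs, rose from 6.78, 0 and 3.03 to 37438, 39565 and 43415, the sulfotransferase Sult1d1 from no read to 6384, 4776 and 4848, and the alcohol dehydrogenase Adh1 from 3.39, 0 and 0 to 4217, 5344 and 5932. Of 44 tested glutathione and xenobiotic enzymes, 31 rose, 7 fell and 3 ended where they began (median 2.15), and 6 had entered through day 5 alone. The falls were of a different set of enzymes. Gsta1, a glutathione transferase with close paralogs, fell 12.2-fold from 4263, 3540.4 and 4065 to 239, 307 and 428, Aldh1a3, a retinaldehyde dehydrogenase, from 1356, 1055 and 1404 to 278, 161 and 198, and thioredoxin reductase Txnrd1 from 7174, 7791 and 7629.5 to 2092, 1852 and 1778. Nqo1 and Hmox1 ended where they began.

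Multiciliated cell genes started from almost nothing. Foxj1, the transcription factor of motile ciliogenesis, read 3.39, 0.830 and 1.82 on day 1 and 2719, 2292 and 2770.3 on day 5 (log2 change 9.84, SE 0.31, adjusted p = 4.4e-09). Its mean on day 3 was 41.9. Ccno, a cyclin-like protein needed to amplify centrioles, rose from 0, 1.66 and 4.24 to 618, 579.6 and 699, and Deup1, the scaffold of the deuterosome on which centrioles are made, from 1 read to 638, 407 and 491, a ratio of 2264 with a counting interval of 406 to 89478. Their day 3 means were 12.4 and 0. Centriole genes shared with dividing cells fell instead. Plk4, the kinase that starts centriole duplication, went from 1099.9, 1209 and 1358 to 354, 205 and 212, Stil from 595, 739 and 611 to 210.1, 133 and 113 and Sass6, of the centriole cartwheel, from 268, 262 and 317 to 66.4, 40.01 and 33.2. In the GENCODE M21 annotation the last 500 bases of Sass6 lie almost wholly under an exon of the other strand, and the origin of its reads was not tested. Over the 20 tested regulators, 12 rose and 7 fell (median 1.76). Without the 7 that entered through day 5 alone, 5 rose and 7 fell, with a median of −0.47.

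Nearly all tested structural genes of the motile cilium rose. Lrrc23, of the radial spoke, had 2 reads in all on day 1 and 1802, 1731 and 2004 normalized counts on day 5. Dnah5, an outer arm dynein heavy chain, had none and then 536, 312 and 364, at least 599.5-fold higher, and Tekt4, a microtubule doublet protein, none and then 299, 311 and 369, at least 468-fold. On day 3 the means of the 3 genes were 0.658, 0 and 0.833. Of 50 tested genes 48 rose and 2 fell, with a median of 6.55. Here 35 had entered through day 5 alone, and of the other 15 it was 13 that rose. The 2 that fell, Tuba1a (6739, 8137 and 5956 to 3900.2, 4917 and 5907) and Tubb4b (15064, 16998 and 15217 to 9373, 10778 and 11310), encode tubulins that are also part of the general cytoskeleton. The call of Tuba1a was lost with quantile normalization (−0.14) and without the second day 1 library (−0.39). With these tubulins included, the list took 0.106 to 0.121% of reads on day 1 and 0.164 to 0.179% on day 5.

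The promoters of cilium genes were searched for GTTGCC on either strand, which is only a part of the X-box, the element bound by RFX factors. Promoters here run from 250 bases before to 50 after the RefSeq start on GRCm38.p6, and 55.8% of the 43 cilium genes with a promoter in the table held the core, against 14.1% of all 27025 genes of the table. Among the 11158 tested genes with a promoter the share was 15.1%, and among those higher on day 5 16.7%. The promoter of Lrrc23, the largest rise of the list, is shown because it holds GTTGCC on both strands, at chr6:124779678-124779977 on the minus strand, with the matches in capitals.
Lrrc23: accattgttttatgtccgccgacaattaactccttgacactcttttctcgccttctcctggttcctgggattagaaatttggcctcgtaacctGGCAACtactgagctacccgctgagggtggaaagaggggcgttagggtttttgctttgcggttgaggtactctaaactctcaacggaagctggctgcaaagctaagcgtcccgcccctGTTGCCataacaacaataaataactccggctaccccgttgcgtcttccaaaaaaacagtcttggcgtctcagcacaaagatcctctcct
The promoter of Dnah5, second by size of change, held no match.

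Most tested genes of the rare epithelial types rose as well. Foxi1, the transcription factor of ionocytes, the cells that carry most Cftr, had no read on day 1 and 152, 145 and 165 on day 5, at least 222-fold higher, and Ascl3 rose from 2 reads to 196, 195 and 210.4. Cftr itself did not pass, at means of 42.3 and 55.3. Chga, a protein of the secretory granules of neuroendocrine cells, had 1 read and then 95.1, 116 and 108. In tuft cells, the chemosensory type, the taste transduction genes Gnat3 and Trpm5 rose from 0, 1.66 and 1.82 to 117, 82.6 and 79.99 and from 11.5, 12.5 and 6.67 to 169, 143 and 129, and the kinase Bmx from 4.07, 0 and 3.64 to 428, 345 and 368. Cftr aside, these genes reached at most 428 normalized counts in a day 5 library, and none of them overlapped between days. By list, 8 of 10 tested ionocyte genes rose with none lower, 11 of 13 tuft cell genes rose with 1 lower, and 9 of 10 neuroendocrine genes rose with 1 lower. Most had entered through day 5 alone, 6, 8 and 7 in turn, and had to be higher. Of the others, 2 of 4 ionocyte, 3 of 5 tuft cell and 2 of 3 neuroendocrine genes rose. The ionocyte list summed to 1266 to 1413 on day 1 and 3540 to 4135 on day 5, and the tuft cell list to 921 to 981 and 1988 to 2317. The neuroendocrine sum fell, from 3108 to 3512 on day 1 to 1002 to 1115 on day 5. The exception among neuroendocrine genes was Calcb, which encodes a calcitonin gene-related peptide and fell from 3112, 3479.8 and 3074 to 243, 181 and 263. Sox9, listed among tuft genes and also a cartilage and progenitor factor, fell from 321, 568 and 366 to 191, 189.7 and 133.

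Some genes had reads on one day only. With no read in any library of the other day and at least 10 normalized counts in every library of its own, 174 genes were seen on day 5 only and 61 on day 1 only. By level, and named after their values were seen, the leading day 5 genes beside Lyz1 and Sult1d1 were Ccdc153, with 1128, 1324 and 1612, and the surfactant protein gene Sftpa1, with 764, 634 and 902. On day 1 they included Sprr2k, with 208, 210.1 and 186, and Krtdap, a keratinocyte differentiation gene, with 193, 93.0 and 174. A count of 0 allows up to 3 reads in a group, and day 5 was sequenced to lower depth, so the same 0 bounds a level less tightly there. Predicted genes with Gm numbers, such as Gm5478 and Gm6093 with the largest falls of all, were not taken by the rule for named genes. Among the 8 largest falls it took, those outside the Sprr family were Klra4, a killer lectin-like receptor gene of a family of close copies, from 477, 599 and 428 to 0, 0 and 3.69, the cytokine Il24 from 744, 917 and 686 to 1.98, 1.29 and 2.46, the kallikrein Klk13 from 2564, 1346 and 2677 to 6.94, 10.3 and 11.1 and the basement membrane protein Nid1 from 809, 810.4 and 896 to 11.9, 3.87 and 1.23.

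Cell cycle genes fell together. Mki67, the marker of cycling cells, stood at 9124, 10954 and 11244 on day 1 and 1144, 1116 and 944 on day 5, a 9.78-fold fall (log2 change −3.29, SE 0.11, adjusted p = 5.3e-09). The spindle checkpoint kinase Bub1 went from 1667, 1876 and 1737 to 129, 91.6 and 93.5, Anln, of the cytokinetic ring, from 6163, 7814 and 7055 to 537, 417 and 331, and Mybl2, a transcription factor of mitotic genes, from 2310.3, 3139 and 2478 to 147, 181 and 133. They were lower by 16.8-fold, 16.4-fold and 17.2-fold. In DNA replication, Orc1 of the origin recognition complex fell 28.5-fold from 462, 571 and 466 to 19.8, 19.4 and 13.5, the licensing factor Cdc6 17.4-fold from 917, 1052 and 971 to 59.5, 58.1 and 51.7, and Rrm2, the ribonucleotide reductase subunit, 17.7-fold from 5842, 7146 and 6006 to 339, 395 and 338. Of 43 mitosis genes 42 were lower (median −2.80), and of 46 replication genes 44 were lower (median −2.38), where 38.4% of all genes tested were. The 1 mitosis gene that rose was Pttg1, securin, which holds back the separation of sister chromatids until anaphase, from 363, 374 and 391 to 467, 639 and 719. Gmnn, geminin, which blocks re-licensing and has a part in multiciliated differentiation, ended where it began at 774, 928 and 737 and 759, 796 and 944.

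The cell cycle homology region (CHR), TTTGAA on either strand, lies in promoters of genes that peak in G2 and mitosis and was found in 74.3% of the 35 mitosis genes with a promoter in the table. In all genes of the table the share was 20.2%, and in the 36 replication genes 16.7%. Among tested genes with a promoter it was 14.9%, and among those lower on day 5 15.8%, so the replication genes lay near the tested genes. CCAAT on either strand, which can sit beside the CHR, was in 68.6% of mitosis and 63.9% of replication promoters. It was in 41.1% of all promoters and 43.0% of those of tested genes. Anln, at chr9:22389157-22389456 on the minus strand, and Knl1, at chr2:119046869-119047168 on the plus strand, are shown with the CHR in capitals. Among the promoters considered, they belong to the mitosis genes of largest fall that hold it. They were chosen after the matches were known, with promoters of a single chromosome left out of the choice. The promoters of Mybl2 and Bub1, whose falls on the log2 scale were slightly larger, held none.
Anln: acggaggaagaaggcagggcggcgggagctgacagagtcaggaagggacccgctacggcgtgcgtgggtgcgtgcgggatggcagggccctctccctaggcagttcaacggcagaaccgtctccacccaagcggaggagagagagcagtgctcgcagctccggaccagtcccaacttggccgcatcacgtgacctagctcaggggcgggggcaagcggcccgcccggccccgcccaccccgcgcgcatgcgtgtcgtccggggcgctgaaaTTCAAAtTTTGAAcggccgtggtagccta
Knl1: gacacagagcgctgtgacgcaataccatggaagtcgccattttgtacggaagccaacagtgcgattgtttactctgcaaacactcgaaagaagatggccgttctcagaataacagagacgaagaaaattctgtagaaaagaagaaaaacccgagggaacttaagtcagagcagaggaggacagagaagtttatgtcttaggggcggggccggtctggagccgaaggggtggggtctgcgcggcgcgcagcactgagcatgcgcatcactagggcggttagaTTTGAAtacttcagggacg
In both the match lies just after the annotated start, and Anln holds the letters once on each strand, a single base apart. Knl1, a kinetochore scaffold, fell from 1290.4, 1457 and 1567 to 132, 98.1 and 72.6.

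Inhibitors of the cycle and targets of p53 moved both ways. Of 32, 11 rose (34.4%) and 14 fell (43.8%), near the 37.0% and 38.4% of all genes tested, with a median of −0.33. The stress gene Sesn1 rose 7.97-fold from 206, 192 and 252 to 1818, 1763 and 1595, the antiproliferative Btg2 5.85-fold from 1729.8, 1030.4 and 1679 to 8788, 9753 and 7439.5, and the death receptor Fas 5.37-fold. The retinoblastoma relative Rbl1 fell from 2068, 2504 and 2391 to 506, 368 and 287, the kinase Plk2 from 8752, 11442 and 9276 to 2239, 2375 and 1896 and the proapoptotic Pmaip1 from 2563, 2792 and 2667 to 531, 608 and 537. Phlda3 ended where it began.

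Genes of signalling pathways moved in both directions, as did the tested genes as a whole, with 37.0% higher and 38.4% lower. In the Notch pathway, which sets secretory against ciliated fate, the receptor Notch1 fell from 3531, 3432 and 4353 to 1709, 857 and 517, its feedback inhibitor Nrarp from 294, 264 and 284 to 81.3, 63.2 and 62.8, and the ligand Dll1 from 1168, 1311 and 1302 to 819, 724 and 623. The last 500 bases of Notch1 and Nrarp lie largely under exons of the other strand, by 82.8% and 100%, and the counting's use of strand is not given in the sources used here. Hey1, a Notch target, rose 68.0-fold from 21.7, 14.1 and 26.7 to 1502, 1375 and 1376, and the fringe gene Rfng, which modifies the receptors, 2.74-fold. Numbl, a Numb-like antagonist, rose from 138, 128 and 145 to 544, 614 and 598. Of 27 tested Notch genes 14 rose (51.9%) and 10 fell (37.0%), with a median of 0.39 that was −0.03 with the length and GC trend removed. Of the rises, 5 entered through day 5 alone and had to be higher, and without them 9 rose and 10 fell, with a median of −0.28.

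In the Wnt pathway ligands and receptors moved both ways. Wnt7a fell 12.5-fold from 394, 545 and 362 to 35.7, 33.6 and 34.5, whereas Wnt5b, a ligand of the noncanonical branch, rose from 2 reads to 203, 254 and 262 and Wnt10a ended where it began. The receptor Fzd5 fell from 541, 707 and 575 to 171, 152 and 138, Fzd2 rose from 43.4, 29.1 and 28.5 to 220.0, 274 and 256, and Fzd10 read 134, 196 and 130.4 and 149, 152 and 151. Lgr6, a receptor for R-spondins, rose from 1.356, 0 and 1.21 to 936, 836 and 799. Its ratio of means, 1001, rests on 4 reads in all of day 1 and is therefore imprecise. Axin2, the common transcriptional target of canonical Wnt signalling, fell from 81.4, 65.6 and 91.0 to 17.8, 20.7 and 6.15. Of 34 tested genes 15 rose (44.1%), 11 fell (32.4%) and 2 ended where they began, where 37.0% of all genes tested rose and 38.4% fell. The median of the list was 0.10 and turned to −0.08 with the length and GC trend removed. Without the 3 that entered through day 5 alone, 12 rose and 11 fell, with a median of 0.00.

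Of 38 tested BMP and TGF-beta genes 13 rose (34.2%) and 18 fell (47.4%), where 37.0% and 38.4% of all genes tested did (median −0.40). Bmp4 was among 2 that entered through day 5 alone, and Id3 was the 1 that entered through day 1 alone, and these had to differ. Of the other 35, 11 rose and 17 fell, with a median of −0.44. Fst, follistatin, the secreted antagonist of activin, fell 42.6-fold from 2244, 3292 and 2451 to 66.4, 65.8 and 55.4. The latent TGF-beta binding protein Ltbp1 fell from 671, 668 and 693 to 110.0, 77.4 and 81.2, and Id3, a BMP target, from 58.3, 39.9 and 81.9 to 0.991, 9.04 and 4.92. Rises were in Bmp4, a ligand, at 6.10, 6.64 and 5.46 and then 57.5, 59.4 and 56.6, in the receptor Bmpr1b, at 108, 167 and 118 and then 1163, 882 and 865, and in the inhibitory Smad6, at 42.7, 30.7 and 50.3 and then 376, 377 and 379. The transducers Smad4 and Smad5 and the receptor Acvr1 ended where they began. Of the EGF family growth factors, those that fell furthest were Epgn, 42.4-fold, Nrg1, 19.4-fold, and Ereg, 17.7-fold. Nrg1, neuregulin, went from 3539.6, 6366 and 4162 to 289, 254 and 182. Its relative Nrg2 rose 2.67-fold, from 293, 215 and 264 to 721, 782 and 561, the largest rise of the list on the log2 scale (1.41). The receptor Erbb2 rose from 1630.1, 1445 and 1739 to 2998, 2931 and 2710, and Lrig1, an inhibitor of these receptors, from 1176, 1365 and 1352 to 3645, 2900.4 and 2458. In this list 5 of 17 genes rose (29.4%) and 10 fell (58.8%). Epgn entered through day 1 alone and had to be lower, and of the other 16 genes 5 rose and 9 fell.

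Most genes of the YAP and TAZ list, which holds partner transcription factors beside targets, fell, but the targets Ccn2 and Ccn1, often used as reporters, rose. Ccn2 rose 10.7-fold from 542, 687 and 537 to 6116, 7001 and 5831 and Ccn1 4.96-fold from 1711, 1515 and 1718 to 8487, 9035 and 7005; both are matricellular proteins that respond to many inputs. The partner transcription factors Tead4 and Tead1 fell 11.2-fold and 4.31-fold, from 1231, 1626 and 1422 to 135, 119 and 129 and from 5224, 6603 and 6372 to 1733, 1336 and 1157. The receptor kinase Axl fell from 3596, 4734 and 3972 to 1137, 1038 and 940.2, and the list had 7 of 27 genes higher and 18 lower (median −0.95). Of 37 tested matrix, adhesion and wound response genes 30 fell, 5 rose and 2 lay inside the margin, 1 of them also past the threshold (median −1.22). The type IV collagens of the basement membrane led them, Col4a1 from 1048, 1415 and 1153 to 24.8, 33.6 and 27.1 (42.3-fold) and Col4a2 from 1193, 1573 and 1326 to 40.6, 58.1 and 38.2 (29.9-fold). Vinculin, Vcl, fell from 2610, 3271 and 3314 to 617, 219 and 96.0, with its last 500 bases wholly under an exon of the other strand. Against them Col7a1, the anchoring fibril collagen, rose 5.82-fold from 481, 622 and 516 to 3236, 3462 and 2722, Itgb5 rose 6.15-fold, and Mmp13, a collagenase, from 2.03, 0.830 and 0.606 to 65.4, 52.9 and 64.0. Mmp13 entered through day 5 alone and had to be higher, and of the other 36 genes 4 rose and 30 fell.

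Immediate early genes moved both ways. Of 30 tested immediate early and heat shock genes, 14 rose and 14 fell (46.7% each), with a median of 0.18 that was −0.55 with the length and GC trend removed. Of the 30, 1 entered through day 5 alone and 1 through day 1 alone and had to differ, and of the other 28, 13 rose and 13 fell. Egr2 and Egr3, zinc finger transcription factors induced within minutes by growth signals, rose from 2.03, 2.49 and 4.24 to 451, 436 and 306 and from 7.46, 11.6 and 11.5 to 173, 186 and 89.8, and Klf2 from 2.03, 15.8 and 4.85 to 131, 157 and 129. The AP-1 member Fosl1 fell from 273, 349 and 272 to 3.96, 1.29 and 2.46, with its last 500 bases under an exon of the other strand, and Klf4, a factor of squamous differentiation, from 5949.6, 5183 and 6533 to 699, 579.6 and 558. The chaperone Hsp90aa1 fell 3.80-fold, from 42332, 44406 and 44504 to 12460, 10888 and 11210.

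Interferon-stimulated genes rose as a group. Ifitm1, a membrane protein that restricts viral entry, read 48.1, 11.6 and 40.6 on day 1 and 6711, 9088 and 10649 on day 5, 263-fold higher (adjusted p = 7.2e-08). Ifi44 went from 0.678, 0 and 2.43 to 197, 156 and 273 and Oasl2, of the oligoadenylate synthetase family, from 21.7, 11.6 and 13.9 to 947, 1021 and 1184. The day 3 means, 3976, 189 and 1181, were already far above day 1. Of 54 tested members 50 rose, 3 fell and 1 ended where it began, with a median of 3.21. The 16 members that entered through day 5 alone had to rise, and of the other 38 it was 34 that rose (median 2.12). The 3 that fell were Eif2ak2, the antiviral kinase PKR (790.0, 718 and 885 to 572, 395 and 391), Ddx58, the RNA sensor RIG-I (1012, 986 and 1076 to 850.2, 680.2 and 663), and Ifit2 (63.7, 64.8 and 60.6 to 39.6, 38.7 and 46.8), which lost its call under other settings. Samd9l ended where it began.

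The core of the interferon-stimulated response element (ISRE), GAAANNGAAA on either strand, was found in 52.4% of the 42 interferon genes with a promoter in the table and in 3.99% of all genes of the table. Among tested genes with a promoter the share was 3.70%, and among those higher on day 5 4.32%. The core was in 2 of the 3 members that fell. Among members whose promoter held it, with promoters of a single chromosome left out of the choice, Rsad2, viperin, and Ifit1 had the largest rises. They are shown for that reason, chosen after the matches were known. Ifitm1 and Ifi44, whose rises were larger, held none. The promoters of Rsad2 and Ifit1 lie at chr12:26456403-26456702 on the minus strand and chr19:34640639-34640938 on the plus strand.
Rsad2: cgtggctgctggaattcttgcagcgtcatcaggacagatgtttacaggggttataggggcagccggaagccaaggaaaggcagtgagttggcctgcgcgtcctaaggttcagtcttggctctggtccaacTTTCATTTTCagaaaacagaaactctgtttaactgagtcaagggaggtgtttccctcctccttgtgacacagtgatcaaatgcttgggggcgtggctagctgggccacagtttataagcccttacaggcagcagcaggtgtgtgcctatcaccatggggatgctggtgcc
Ifit1: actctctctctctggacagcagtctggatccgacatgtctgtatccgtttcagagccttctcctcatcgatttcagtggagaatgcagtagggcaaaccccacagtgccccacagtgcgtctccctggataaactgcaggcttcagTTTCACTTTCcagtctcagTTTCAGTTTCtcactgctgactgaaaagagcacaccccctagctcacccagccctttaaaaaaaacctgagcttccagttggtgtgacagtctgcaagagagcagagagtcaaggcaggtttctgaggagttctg
The capitals are the core, read on the opposite strand in each case, once in Rsad2 and at a pair of neighbouring places in Ifit1. Rsad2 rose from 0.678, 0 and 1.21 to 90.2, 63.2 and 137 and Ifit1 from 9.49, 7.47 and 11.5 to 562, 538 and 754.

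Cytokines and sensors moved both ways. Cxcl15, a lung chemokine, rose from 0.678, 0 and 3.64 to 1283, 1141 and 1362, the mucosal chemokines Cxcl17 and Ccl28 from 52.2, 24.9 and 52.1 to 3360.2, 3628 and 4622 and from 4.75, 4.15 and 4.85 to 577, 426 and 480.0. The neutrophil chemoattractants Cxcl1 and Cxcl3 fell from 1333, 731 and 1381 to 113, 129 and 159 and from 659, 583 and 646 to 76.3, 47.8 and 87.4, and Il1a from 139.7, 100.5 and 122 to 52.5, 28.4 and 30.8. In the list of 36 tested genes 16 rose and 12 fell (44.4% and 33.3%, against 37.0% and 38.4% of all genes tested), with a median of 0.26 that was −0.09 with quantile normalization. Of these, 5 entered through day 5 alone and 3 through day 1 alone and had to differ, and of the remaining 28, 11 rose and 9 fell, with a median of 0.09.

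Genes of sterol synthesis fell. Of 28 genes 24 were lower, 2 higher, 1 inside the margin and 1 neither, with a median of −1.72. Hsd17b7 fell 13.8-fold from 2159, 2408 and 2369.7 to 189, 178 and 134, and Idi1, of the mevalonate branch, 7.84-fold from 12193, 12975 and 12587 to 1662, 1704 and 1449.7. The 2 that rose were not enzymes of the pathway. Srebf1, a transcription factor that mainly drives fatty acid genes, rose from 3902, 4226 and 4182 to 7698, 8511 and 7106, and Sqstm1, an autophagy receptor that the list also holds, from 4722, 4525 and 4804 to 8281, 9433 and 9872. Tm7sf2, a sterol reductase, ended where it began at 472, 443 and 421 and 392.4, 452 and 489.8. The core of the sterol regulatory element, CACCCCAC on either strand, was in 2 of 20 promoters (against 3.30% of all genes of the table), and the CCAAT box, bound by NF-Y, in 17 of 20 (85.0% against 41.1%). Among tested genes with a promoter the shares of these motifs were 3.83% and 43.0%. The promoter of Idi1, at chr13:8885356-8885655 on the plus strand, is printed with its CCAAT boxes in capitals, read on the opposite strand. It held no sterol element core, and neither did that of Hsd17b7, and marking CCAAT instead was chosen after the matches were known.
Idi1: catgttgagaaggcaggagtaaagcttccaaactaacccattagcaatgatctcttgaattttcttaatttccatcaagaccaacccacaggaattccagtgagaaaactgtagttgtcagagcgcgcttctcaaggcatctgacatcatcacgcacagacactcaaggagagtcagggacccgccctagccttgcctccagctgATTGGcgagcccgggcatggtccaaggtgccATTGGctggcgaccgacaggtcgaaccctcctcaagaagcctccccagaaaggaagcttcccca

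Genes of glycolysis and the hypoxia response fell as well, 26 of 37 tested genes with 5 higher (median −0.93). Eno1, enolase, went from 43627, 49255 and 43478 to 5999.9, 7943 and 7801 (6.27-fold), the lactate exporter Slc16a3 from 1812, 2256 and 1814 to 121, 125 and 127 (15.8-fold) and the glycolytic activator Pfkfb3 from 1461, 1433 and 1637 to 159.5, 152 and 145. Some rises stood beside the fall of a related gene. Epas1, the hypoxia-inducible factor HIF-2 alpha, rose 18.9-fold from 1843, 1862 and 2131 to 41844, 34812 and 33526, while Hif1a fell by 1.13 on the log2 scale. Aldoc rose 5.26-fold while Aldoa fell by 0.93, and Pfkm rose 3.38-fold while Pfkp fell by 2.11. Nuclear genes of the respiratory chain had smaller changes. Of 44, 19 rose, 4 fell and 13 lay inside the margin (2 of them also past the threshold), with a median of 0.23 and a range of −1.25 to 1.35. With quantile normalization 32 rose, and the median was 0.63. The largest rise was Ndufa1, of complex I, from 515, 585 and 546 to 1070.2, 1429 and 1776, and the largest fall cytochrome c, Cycs, from 4696, 4577 and 4390.2 to 1578, 2009.7 and 2202. The 21 tested genes of the mitochondrial genome itself had a median of 0.87.

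Of the ion and water transport genes, 13 of 25 tested rose (52.0%) and 8 fell (32.0%), where 37.0% and 38.4% of all genes tested did (median 0.71). Of these, 1 entered through day 5 alone and had to be higher, and of the other 24, 12 rose and 8 fell (median 0.53). The water channel Aqp4 rose from 37.3, 4.15 and 46.1 to 1433, 864 and 898, and the potassium channel Kcnq1 10.3-fold from 165, 78.9 and 130.4 to 1256, 1199 and 1408. Clca3a2 rose from 10.2, 6.64 and 10.9 to 343, 212 and 204. The nucleotide receptor P2ry2 fell 3.77-fold from 1002, 1017 and 1081 to 301, 256 and 266, and the anion transporter Slc26a9 from 112, 123 and 121 to 29.7, 31.0 and 39.4.

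**Figure D3:**
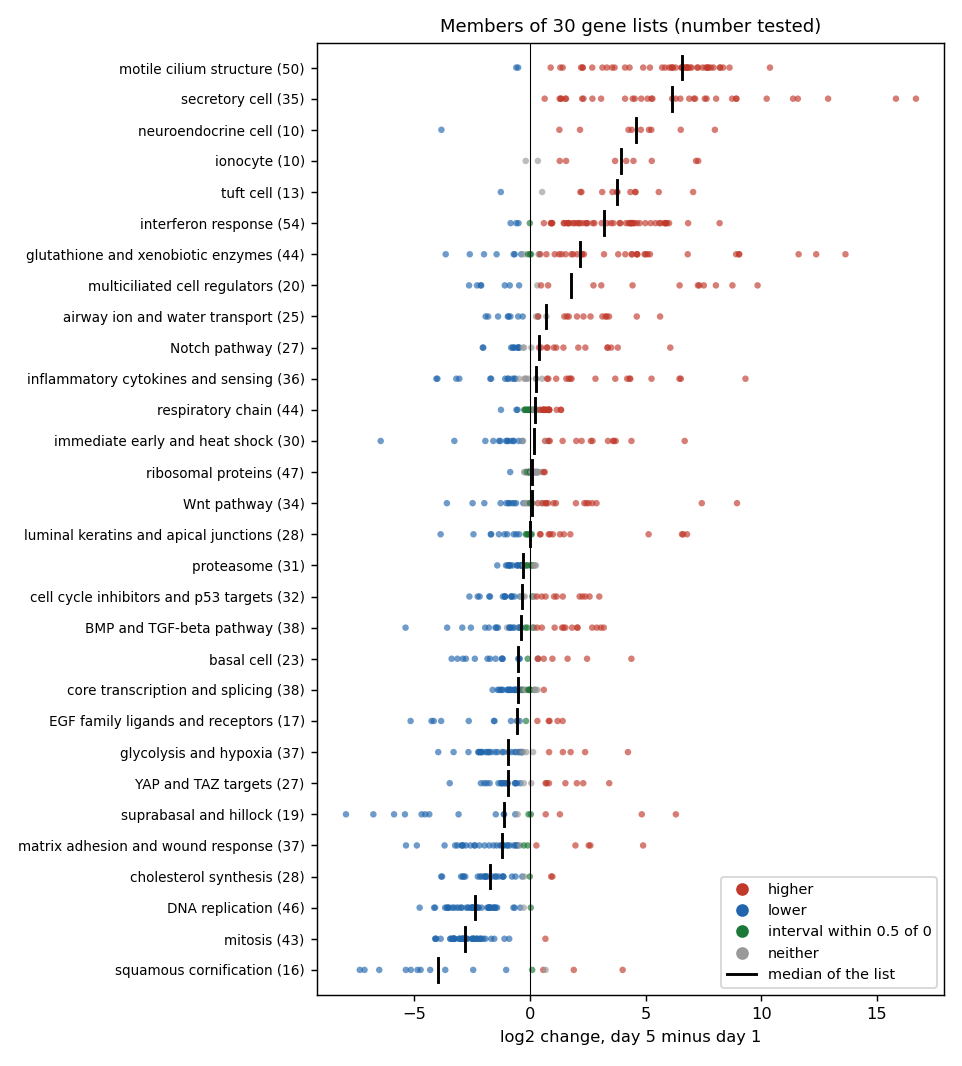
Log2 change from day 1 to day 5 of each tested member of 30 gene lists (points, coloured by call), with the list median as a black bar and lists ordered by median. Motile cilium structure and secretory cell genes lie highest, with medians of 6.55 and 6.14, squamous cornification, mitosis and DNA replication lowest, with −3.98, −2.80 and −2.38, and ribosomal proteins span −0.85 to 0.64.

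Genes that ended where they began have to be well counted, since the narrow interval that defines them is hard to meet with few reads, and their level is no finding. Their median level was 946 normalized counts, against 380 for all genes tested, and 1536 of the 1542 had a mean of at least 100. By level, those with the most reads were Krt19, Rpl3, Rack1, Rps6, Rps3 and Atp5a1. Rpl3, of the large ribosomal subunit, read 26989, 28738 and 26750 on day 1 and 20142, 27815 and 29166 on day 5, and Rack1, a scaffold on the small subunit, 25792, 25886 and 24706 and 20540, 30043 and 32165. In both the 3 day 5 libraries spread around the tighter day 1 values, with the first of them lowest. Atp5a1, of the ATP synthase, read 18677, 19993 and 19026 and 15201, 17141 and 16657, which did not overlap although the interval of −0.46 to −0.01 lay inside the margin. Of the 1542 genes, 159 also passed the threshold for a change, 68 higher and 91 lower. One was Timp2, an inhibitor of metalloproteinases, at 4846, 4760.1 and 4918 and 3781, 4203 and 4141.

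Housekeeping complexes were not uniform. Of 47 ribosomal protein genes 2 rose (Rpl30 and Rps14), 1 fell (Rps2, from 35062, 43860 and 40805 to 17832, 24982 and 23853), 8 lay inside the margin and 36 were neither. Their summed share of reads was 3.71 to 3.97% on day 1, 7.63 to 9.47% on day 3 and 3.27 to 5.04% on day 5. The number that rose depended on the scaling, with 5 under TMM factors, 6 without the length and GC trend and 19 under quantile normalization, although the calls of Rpl30 and Rps14 themselves were lost in some settings. Of 31 proteasome subunits 0 rose, 19 fell and 6 lay inside the margin, 1 of them also past the threshold, with a median of −0.31. With quantile normalization 7 rose and 9 fell, and the median was 0.07. Psmd1, of the regulatory particle, fell from 4863, 5414 and 5134 to 2350.4, 1816 and 1679.9, whereas Psma7, of the core, read 3724, 3956 and 3604 and 2915, 4176 and 4775. Of 38 core transcription and splicing genes 23 fell, 1 rose and 7 lay inside the margin, 1 of them also past the threshold (median −0.51). Prpf8, the central spliceosome protein, fell 3.03-fold from 8552, 10572 and 9903 to 3929, 2940.4 and 2708, Polr2a, the large subunit of RNA polymerase II, 2.63-fold from 5002, 6529.5 and 5889.8 to 2476, 2178 and 1958, and the splicing helicase Ddx39b ended where it began.

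Of the 43 genes that the naming rule took from this class, 0 stayed inside the margin under all 18 alternatives. A gene that ended where it began had not always stayed there. Of the 1542 genes, 943 had a day 3 mean within 0.5 of the middle of days 1 and 5 on the log2 scale, while 93 lay at least 1 above it and 45 at least 1 below, with extremes of 2.14 and −2.13. Farthest above was Nqo1, a quinone reductase, which read 1970.5, 1641 and 1921 on day 1, 8202, 7636 and 7732 on day 3 and 1561, 1935 and 1730.3 on day 5. The heme synthesis enzyme Alad read 1192, 1211 and 1223, then 5956, 5643 and 4600.5, then 973, 1468 and 1554, and the lysosomal protease Ctsd 8316, 8502 and 8692, then 34037, 29184 and 23591, then 6769.9, 8842 and 10302. In each the day 3 libraries stood clear of both other days, which overlapped. Cldn7, Enpp1 and Mnd1 did likewise, with day 3 means of 13871, 1017 and 394 against day 5 means of 4113, 251 and 118. Farthest below was Gnai1, an inhibitory G protein subunit, with 904, 1232 and 918, then 226, 273 and 224, then 1185, 1097 and 1014. The Wnt receptor Fzd10 read 46.2, 37.5 and 42.4 on day 3, and Slco3a1, an organic anion transporter, 418, 621 and 513, then 159.9, 141 and 115, then 545, 512 and 491. Wdr47, Zbtb26 and Man1a, a mannosidase of the Golgi, dipped as well, to means of 103, 44.8 and 555. These 12 genes were chosen for their distance on day 3, so that distance is a description. Beside it, ribosomal protein genes also took a larger share of reads on day 3 than on either other day, and the part of that shift in the excursions was not tested.

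**Figure D4:**
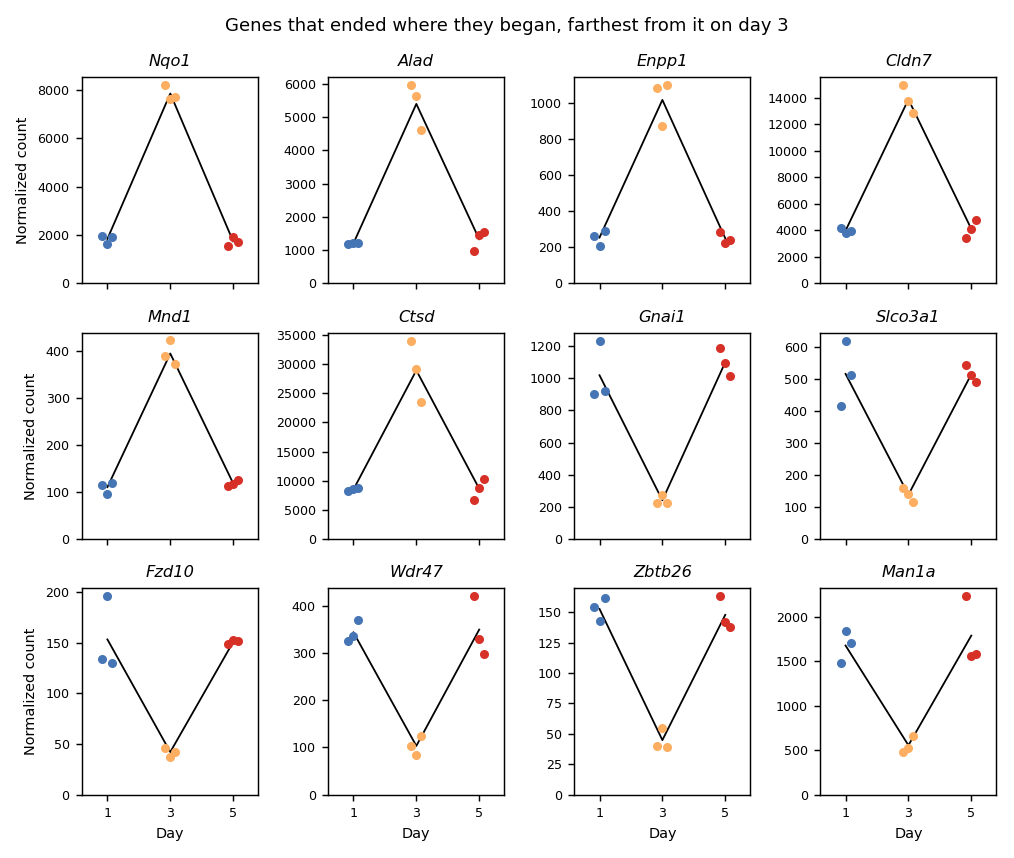
Normalized counts (linear axes from 0) on days 1, 3 and 5 of the 12 genes that ended where they began and lay farthest from that level on day 3, with 1 point per library and a line through the day means. The first 6 panels rise to day 3 and return, the last 6 dip and return, and in every panel the day 3 libraries lie apart from those of days 1 and 5.

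**Figure D5:**
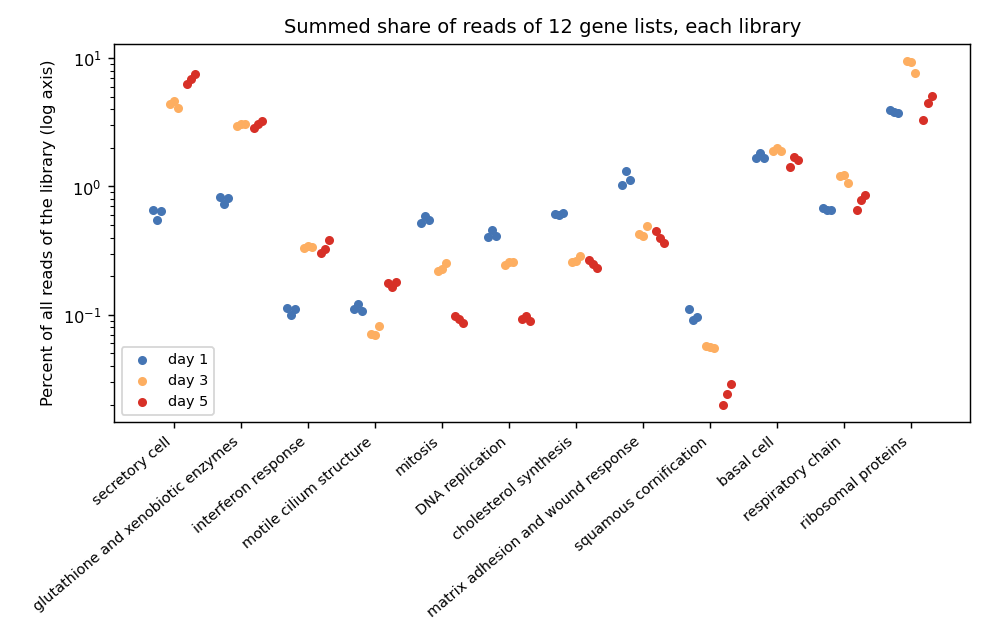
Summed share of all reads (percent, log axis) of 12 gene lists in each library of days 1, 3 and 5. Secretory genes climb from 0.552 to 0.654% on day 1 to 6.34 to 7.56% on day 5, mitosis and replication genes step down at each day, and the basal and ribosomal lists end at shares that overlap those of day 1.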

How the data were processed

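RNA of 9 libraries (3 each of days 1, 3 and 5) was sequenced. HISAT2 2.1.0, GRCm39 and DESeq2 1.36.0 are named in the submitters' processing notes, and the counter, annotation release and use of strand were not given in the sources used here. Each value that the authors deposited is the log2 of a count divided by the size factor of its library, with text in place of the log2 of 0, which was read as 0 counts. Of the deposited lines, 359 of 57107 were dropped as repeats. Each library's values stepped in whole reads (100% whole within 0.01 read), which gave its depth.

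Values were returned to the linear scale and tested as log2(normalized count + 1) with limma 3.58.1 (R 4.3.3), a mean-variance trend and 1 mean per day over all 9 libraries (6 residual degrees of freedom), two-sided, Benjamini-Hochberg at 0.05. The script was tested on simulated data. Intervals at 95% are not adjusted for the number of genes. Folds are ratios of mean normalized counts, with a floor of 3 reads over a group at 0. Floors and counting intervals cover counting error only.

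Named genes are 12 fixed markers, the 8 largest rises and falls with a mean of at least 100 on the higher day and no overlap (leaving out symbols that are Gm plus digits or end in Rik or -ps), up to 3 per direction and 3 returning genes in each list, and 6 returning genes on each side by day 3 level. Others named were chosen after their values were seen. Some genes that the rule takes are not reported here. The genes and lists were chosen with earlier results of these data known. Lengths, GC content and overlaps came from GENCODE M21 on GRCm38 by identifier, and promoters from RefSeq on GRCm38.p6, not the build of the files, so no other coordinates are given. Alternatives in normalization, pseudocount, filter, libraries, block, trend and margin were run, with voom on recovered reads added after seeing the data.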

Additional observations from a re-analysis of the deposited data

How the results depend on the processing

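Over 18 alternatives the numbers of genes higher and lower stayed within 1.5 times of 6209 and 6447. TMM factors gave 6517 and 6068, no filter on low values 7636 and 8137, a filter of 50 normalized counts 4860 and 5534, and voom on recovered reads with total-count scaling, chosen after seeing the data, 6556 and 6099. Leaving out 1 library at a time gave 5777 to 6320 higher, 5983 to 6526 lower and 1148 to 1600 inside the margin. The number of genes that end where they began depended on the margin, with 101 genes at 0.25 and 5247 at 1 in place of 1542 at 0.5. With the replicate block 6010 genes were higher, 6201 lower and 1325 inside the margin. Libraries of days 1 and 5 with the same number did not deviate together (r −0.277, 0.086 and −0.290 across genes), so the numbers were not taken as pairing. Of 182 named genes past the threshold, 175 kept their call in every alternative, and Trp63, Krt10, Tuba1a, Ifit2, Rpl30, Rps14 and Vim did not. Trp63 turned to 0.024 with the length and GC trend removed. Of 43 named genes that ended where they began, 0 stayed inside the margin in every alternative, so each depended on at least 1 setting. The lower depth of day 5 limits what can be said of genes with few reads there.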
